A study of Mus musculus with 7 samples.

Results

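The 8 genes described here encode core parts of the machinery of programmed cell death: the caspases Casp8, Casp9 and Casp6, the adaptor Fadd, the caspase-8 regulator Cflar, the apoptosome scaffold Apaf1 and the RIP kinases Ripk1 and Ripk3. They were taken by symbol, through their Ensembl gene identifiers, from a table of 53379 genes, and all 8 were in it and passed the filter on low counts, as 12161 genes did. The RNA came from splenic natural killer (NK) cells of mice, the innate lymphocytes that kill infected or transformed cells. The groups were 4 Hhex KO samples, in which the homeobox transcription factor gene Hhex is deleted, and 3 Cre control samples, all of the C57BL/6 strain and all sorted by surface markers (CD45+, CD3-, NK1.1+, NKp46+ and CD49b+). The sources used here do not give the Cre driver, the deleted part of Hhex or the age of the mice, and the labels do not say that each sample came from its own animal.

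Apoptosis is started along 2 routes. In the extrinsic route a ligand-bound death receptor recruits the adaptor FADD, which gathers procaspase-8, and the caspase-like protein encoded by Cflar (c-FLIP) joins the same complex and limits its activation. In the intrinsic route, which BIM (the product of Bcl2l11) can trigger, cytochrome c from mitochondria binds APAF1, and the resulting apoptosome activates caspase-9, which in turn activates executioner caspases. RIPK1 is the kinase that sits at the branch between survival signalling, apoptosis and necroptosis. RIPK3 drives necroptosis by phosphorylating MLKL, and caspase-8 holds this lytic form of death in check by cleaving the RIP kinases.

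Total counts were 10589915 to 18414034 in the Hhex KO libraries and 11482273 to 18456404 in the Cre control libraries. Hhex itself was at 54.2 to 64.8 CPM (read counts scaled to a common library total with TMM factors) in Hhex KO and at 93.5 to 96.1 CPM in Cre control, so its mRNA was lower but still read. All 8 NK cell markers examined were read, and their summed level was 11546 to 15736 CPM in Hhex KO and 14435 to 18934 CPM in Cre control. Hhex KO replicate 4 carries sample number 95 in the labels and the other libraries 20 to 28, and whether it was handled apart is not stated. Libraries of the same genotype differed in Malat1, a nuclear long non-coding RNA. It was at 918, 155, 138 and 649.7 CPM in Hhex KO replicates 1 to 4 and at 619, 243 and 382 CPM in Cre control replicates 1 to 3. Adjusted p-values come from the quasi-likelihood test of edgeR, with Benjamini-Hochberg adjustment over the 12161 genes, except where a sentence names a different tool. Log2 fold changes set Hhex KO over Cre control and are given with their standard error.

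Ripk3 was the single gene of the 8 that passed the test, and it was higher in Hhex KO. The other 7 genes did not pass it. Among all genes tested, 2.68% were called higher and 1.87% lower. At an unadjusted p under 0.05 there were 2 of the 8, Ripk3 and Cflar, against 18.5% of all tested genes. The CPM values of the groups were fully apart for Ripk3, Cflar and Ripk1, that is for 3 of the 8 genes, against 19.3% of all tested genes. The median log2 fold change of the 8 genes was -0.07, against 0.02 over all tested genes. In bulk RNA, a change in the share of a cell subset and a change in RNA per cell cannot be told apart, which holds for every value below.

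**Figure D1:**
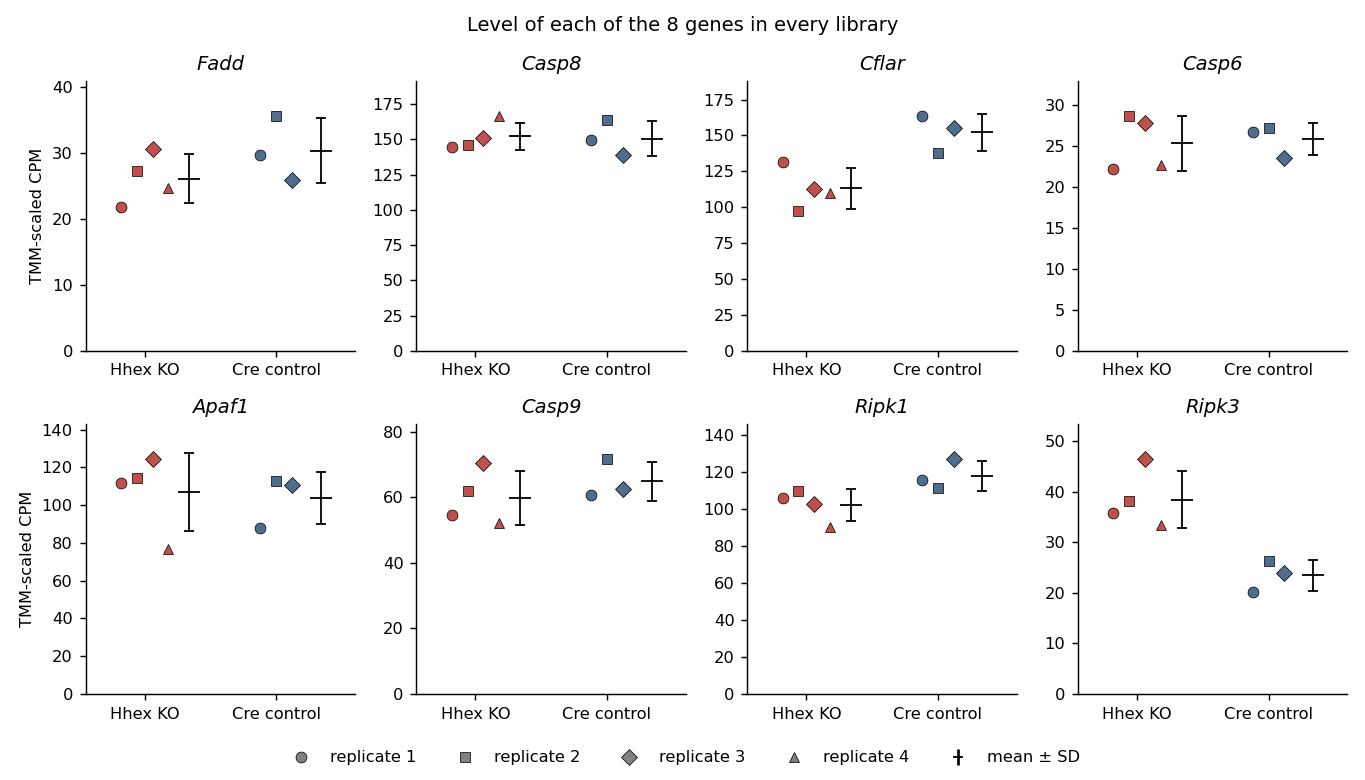
TMM-scaled CPM (linear axes from 0) of each of the 8 genes in 4 Hhex KO and 3 Cre control libraries, with symbols for the replicate and the mean ± SD beside them. The groups separate upward in Ripk3 (33.5 to 46.4 CPM in Hhex KO against 20.2 to 26.4 CPM in Cre control) and downward in Cflar and Ripk1, and overlap in the other 5 genes.

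Ripk3 (ENSMUSG00000022221.14) lies on the minus strand of chromosome 14, from 55784995 to 55788865 on GRCm38 (mm10), and has 2292 exonic bases that no other annotated gene shares. The stretch upstream of its transcription start is shown first below because Ripk3 carries the one called difference. Cflar, which had the most negative fold change of the 8, and Casp9, whose groups overlapped, are given for comparison. Each run is 240 bases from RefSeq on GRCm38.p6, written 5′ to 3′ on the gene's strand, and ends 10 bases before the RefSeq start. Capitals mark the GC box GGGCGG (bound by the SP and KLF families), the ETS core CGGAAG or the homeodomain-type core ATTAA, each on either strand. The GC box and the ETS core can share letters.
Ripk3 promoter, chr14:55788868-55789107, minus strand: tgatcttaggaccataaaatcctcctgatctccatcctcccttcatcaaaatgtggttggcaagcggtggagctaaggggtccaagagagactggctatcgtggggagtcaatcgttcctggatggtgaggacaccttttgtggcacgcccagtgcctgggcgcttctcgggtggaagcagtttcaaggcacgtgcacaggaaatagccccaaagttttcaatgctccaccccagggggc
Cflar promoter, chr1:58711241-58711480, plus strand: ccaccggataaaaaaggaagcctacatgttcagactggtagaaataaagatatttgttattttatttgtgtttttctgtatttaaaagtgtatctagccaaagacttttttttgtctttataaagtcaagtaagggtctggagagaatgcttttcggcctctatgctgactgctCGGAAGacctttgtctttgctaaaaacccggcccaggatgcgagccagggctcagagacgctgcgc
Casp9 promoter, chr4:141793362-141793601, plus strand: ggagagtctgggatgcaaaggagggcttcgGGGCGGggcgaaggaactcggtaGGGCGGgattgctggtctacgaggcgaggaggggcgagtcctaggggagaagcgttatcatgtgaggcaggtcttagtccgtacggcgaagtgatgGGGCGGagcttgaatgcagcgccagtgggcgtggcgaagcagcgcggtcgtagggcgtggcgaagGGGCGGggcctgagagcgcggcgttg
The Ripk3 run held none of the 3 motifs and 7 CpG dinucleotides at 54.6% G and C. The Cflar run held 1 ETS core, beginning 76 bases before the start, and also 7 CpG at 41.7% G and C. The Casp9 run held 4 GC boxes and 25 CpG at 66.2% G and C. Among the genes whose groups overlapped, it had the most GC boxes. The Apaf1 run held 2 of them and the Casp6 and Fadd runs 1 each. The runs of Ripk1, whose groups were apart as in Ripk3 and Cflar, held 2 and 4 GC boxes and 19 and 31 CpG. Over all 32851 promoter windows of the same length, 31.3% held a GC box, 12.7% an ETS core and 24.4% the ATTAA core, with a median of 5 CpG and 52.1% G and C. All 8 genes had a window, with 9 windows in all, and among them the ATTAA core occurred only in that of Casp8. The Casp8 window, of a gene whose groups also overlapped, held 0 GC boxes and 5 CpG at 38.8% G and C. It ends before a RefSeq start at 58802502, which lies inside the annotated Casp8 gene (58795374 to 58847503). The motifs are matches of letters and not measured binding.

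Ripk3, the kinase that commits a cell to necroptosis, was at 35.7, 38.3, 46.4 and 33.5 CPM in Hhex KO replicates 1 to 4, from 552, 668, 788 and 378 reads. In Cre control replicates 1 to 3 it was at 20.2, 26.4 and 23.9 CPM, from 270, 300 and 442 reads. The lowest Hhex KO library thus lay above the highest Cre control library. The means were 38.5 ± 5.64 CPM (SD, n = 4) in Hhex KO and 23.5 ± 3.10 CPM (SD, n = 3) in Cre control, a fold change of 0.71 ± 0.15 on the log2 scale with a 95% interval of 0.37 to 1.06 and an edgeR adjusted p of 0.0351. DESeq2 also called it higher (adjusted p = 0.00123), as it did 5.14% of the genes it tested, and so did limma-voom (adjusted p = 0.0368), which called 2.71% of genes higher. By size of p it ranked 426 of the 12161 genes. The direction held under all 15 alternatives, with log2 fold changes from 0.61 to 0.80. The call did not hold under 6 of the 7 analyses that leave out 1 library: the edgeR adjusted p was 0.0564, 0.0666 and 0.0756 without Hhex KO replicates 1, 2 and 3, and 0.163, 0.0787 and 0.138 without Cre control replicates 1, 2 and 3. Without Hhex KO replicate 4 it was 0.0243.

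Markers of other cells and states are set beside Ripk3 here. The summed level of 8 markers of type 1 innate lymphoid cells, tissue-resident relatives of NK cells, was 425 to 577 CPM in Hhex KO and 67.4 to 86.5 CPM in Cre control. All 8 of these markers (Cxcr6, Itga1, Il7r, Zfp683, Tmem176a, Tmem176b, Cd200r1 and Inpp4b) were called higher, against 2.68% of all tested genes. None of the 8 was at 0. The sort gate included CD49b, which type 1 innate lymphoid cells usually lack, and the share of such cells that passed it is not known here. Whether the marker levels have a part in the level of Ripk3 was not tested. Markers of proliferating cells also moved with genotype, at 399 to 807 CPM summed in Hhex KO and 266 to 385 CPM in Cre control. The sums did not overlap, and 4 of the 8 markers were called higher, against 2.68% of all tested genes. Their part in the level of Ripk3 or of any other gene described here was not tested. Monocytes and macrophages are cells in which RIPK3 is known to act. Their markers summed to 12.2 to 246 CPM in Hhex KO and 42.3 to 120 CPM in Cre control. Of these 6 markers, 0 were at 0 in all libraries. In either direction 0 of the 6 were called, against 4.56% of all tested genes. The groups overlapped in this sum, and the part of these markers in the level of Ripk3 was not tested. Hhex KO replicates 1 and 4, the pair with more Malat1, were the lower pair of their group in Ripk3, and Cre control replicate 1, with the most Malat1 of its group, had the least Ripk3 there. Nuclear RNA as such was not measured, and its part in the levels was not tested.

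Ripk1 (ENSMUSG00000021408.15, chromosome 13, 34002363 to 34037147, plus strand), the kinase upstream of Ripk3, was not called. It was at 106, 109.9, 103 and 90.2 CPM in Hhex KO replicates 1 to 4 and at 116, 112 and 127 CPM in Cre control replicates 1 to 3. The Hhex KO libraries all lay below the Cre control libraries, though the nearest pair differed by little. The log2 fold change was -0.21 ± 0.11 with a 95% interval of -0.46 to 0.04 (edgeR adjusted p = 0.374), and no alternative called it. Ripk1 shares 241 exonic bases with Serpinb6a on the opposite strand and 511 with the pseudogene Gm17084. Gm17084 was read 0 times and Serpinb6a 2973 times over the 7 libraries, and the strand setting of the counting is not stated.

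The ratio of Ripk3 to Ripk1 within a library removes the scaling between libraries. It was 0.336, 0.348, 0.451 and 0.371 in Hhex KO replicates 1 to 4, against 0.175, 0.236 and 0.188 in Cre control replicates 1 to 3. Every Hhex KO library lay above every Cre control library, with means of 0.377 ± 0.052 (SD, n = 4) and 0.200 ± 0.032 (SD, n = 3). The ratio of Ripk3 to Casp8, the protease that restrains necroptosis, was 0.247, 0.261, 0.308 and 0.201 in Hhex KO and 0.135, 0.161 and 0.172 in Cre control, again without overlap. In every Hhex KO library Ripk3 lay above and Ripk1 below all Cre control libraries, so the Ripk3:Ripk1 ratio had to separate the groups. These ratios share the Ripk3 counts, are of CPM with no correction for length, and are given as a description with no test.

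**Figure D2:**
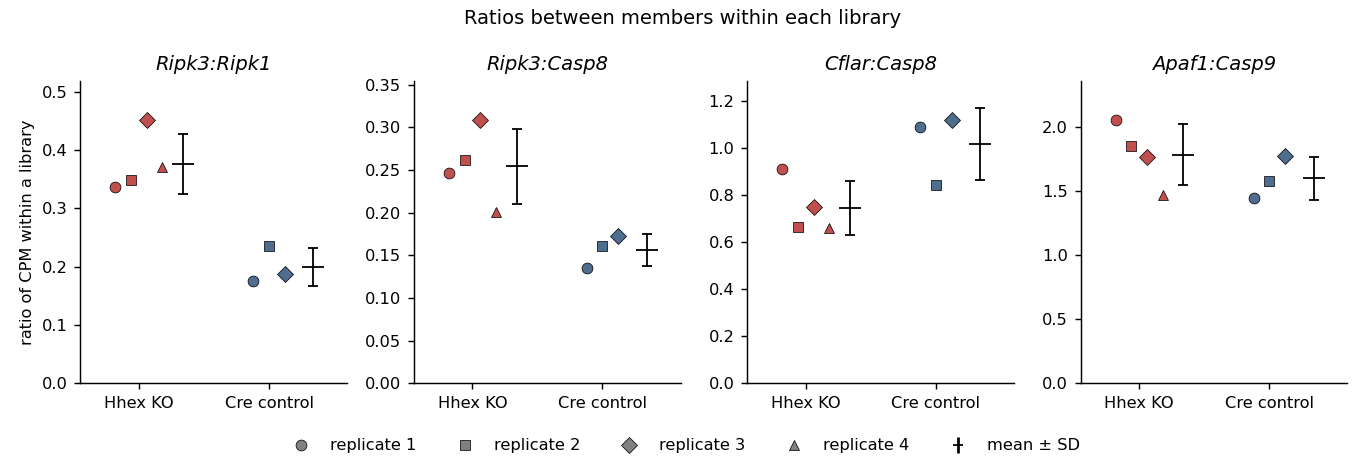
Ratio of the CPM of 2 genes within each library (linear axes from 0), for 4 Hhex KO and 3 Cre control libraries, with the mean ± SD beside the points. Ripk3:Ripk1 (0.336 to 0.451 in Hhex KO against 0.175 to 0.236 in Cre control) and Ripk3:Casp8 separate the groups, whereas Cflar:Casp8 and Apaf1:Casp9 overlap.

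In the extrinsic route, Casp8, Fadd and Cflar did not pass the edgeR test. Casp8 (ENSMUSG00000026029.14, chromosome 1, 58795374 to 58847503, plus strand) was at 145, 146, 151 and 166 CPM in Hhex KO replicates 1 to 4 and at 149.7, 163 and 139 CPM in Cre control replicates 1 to 3. The ranges overlapped over most of their width. The log2 fold change was 0.01 ± 0.11 (edgeR adjusted p = 0.97), and its 95% interval of -0.24 to 0.26 bounds the size of a change that these libraries allow. Fadd (ENSMUSG00000031077.7, chromosome 7, 144577318 to 144582463, minus strand), the adaptor between death receptors and caspase-8, was at 21.8, 27.3, 30.5 and 24.6 CPM in Hhex KO and at 29.6, 35.5 and 25.9 CPM in Cre control. Its groups overlapped, with a log2 fold change of -0.22 ± 0.16 and a 95% interval of -0.58 to 0.14 (edgeR adjusted p = 0.543). Fadd shares 239 exonic bases with its antisense gene Faddos, which had 7 reads over all libraries.

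Cflar (ENSMUSG00000026031.15, chromosome 1, 58711508 to 58758884, plus strand), the inhibitor in the caspase-8 complex, had lower values in every Hhex KO library without passing the edgeR test. It was at 132, 97.7, 113 and 109.9 CPM in Hhex KO replicates 1 to 4 and at 163, 138 and 155 CPM in Cre control replicates 1 to 3. The highest Hhex KO library, replicate 1, fell just short of the lowest Cre control library, replicate 2. The means were 113 ± 14.1 CPM (SD, n = 4) in Hhex KO and 152 ± 13 CPM (SD, n = 3) in Cre control. The log2 fold change was -0.43 ± 0.13 with a 95% interval of -0.72 to -0.14, at an unadjusted p of 0.00909 and an edgeR adjusted p of 0.106. DESeq2 called it lower (adjusted p = 0.0399), as 3.86% of the genes it tested were, and so did limma-voom run with sample quality weights, at an adjusted p of 0.0105, which called 10.9% of genes lower. The other 13 alternatives did not call it.

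Cflar and Casp8 lie beside each other on chromosome 1, on the same strand and 36489 bp apart. Their ratio was 0.9097 in Hhex KO replicate 1, 0.667 in replicate 2, 0.749 in replicate 3 and 0.660 in replicate 4, against 1.09, 0.844 and 1.12 in Cre control replicates 1 to 3. The ranges overlapped through Hhex KO replicate 1 and Cre control replicate 2, and the means were 0.747 ± 0.116 (SD, n = 4) and 1.02 ± 0.15 (SD, n = 3). The share of Cflar relative to Casp8 was therefore lower on average in Hhex KO, but not in every pair of libraries.

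**Figure D3:**
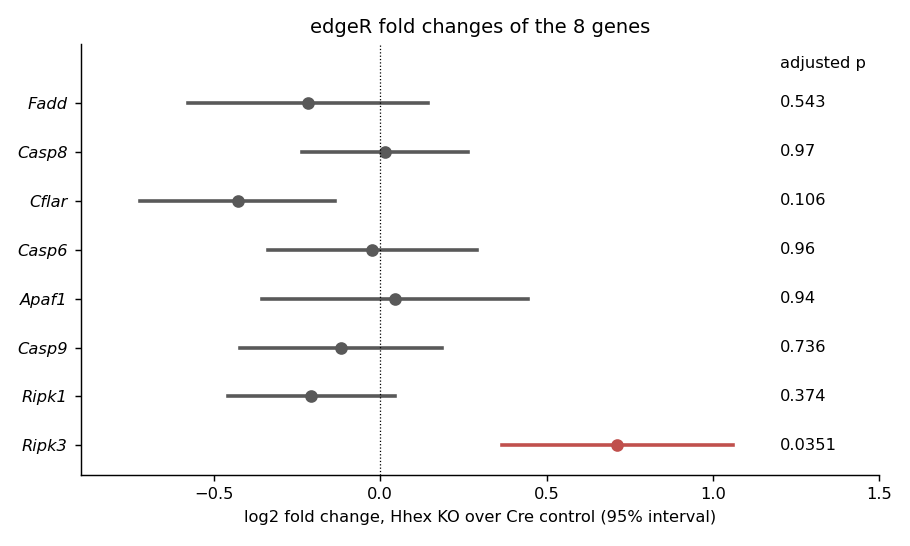
Log2 fold change of each of the 8 genes, Hhex KO over Cre control, from edgeR (n = 4 and n = 3), with bars for the 95% interval and the adjusted p at the right. The interval of Ripk3 (0.37 to 1.06) and that of Cflar (-0.72 to -0.14) leave out 0, and the adjusted p is below 0.05 for Ripk3 alone.

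Neither Apaf1 and Casp9 of the intrinsic route nor the executioner caspase Casp6 was called by edgeR. None of these 3 genes had an unadjusted p under 0.05, and DESeq2 and limma-voom, with or without sample quality weights, called none of them either. Apaf1 (ENSMUSG00000019979.12, chromosome 10, 90989311 to 91082770, minus strand), the scaffold of the apoptosome, was at 112, 114, 124 and 76.9 CPM in Hhex KO replicates 1 to 4 and at 87.6, 113 and 111 CPM in Cre control replicates 1 to 3. Hhex KO replicate 4 and Cre control replicate 1 were the low libraries of their groups, and the other 5 lay close together. The log2 fold change was 0.04 ± 0.18 with a 95% interval of -0.36 to 0.44 (edgeR adjusted p = 0.94), the widest interval of the 8 genes. Casp9 (ENSMUSG00000028914.13, chromosome 4, 141793612 to 141815976, plus strand), the initiator caspase of the apoptosome, was at 54.5, 61.8, 70.5 and 52.3 CPM in Hhex KO and at 60.6, 71.5 and 62.4 CPM in Cre control. Its groups overlapped, with a log2 fold change of -0.12 ± 0.13 and a 95% interval of -0.42 to 0.19 (edgeR adjusted p = 0.736). Casp6 (ENSMUSG00000027997.9, chromosome 3, 129901425 to 129914103, plus strand), an executioner caspase, was at 22.2, 28.6, 27.9 and 22.7 CPM in Hhex KO and at 26.7, 27.2 and 23.6 CPM in Cre control. Its log2 fold change was -0.02 ± 0.14 with a 95% interval of -0.34 to 0.29 (edgeR adjusted p = 0.96). The ratio of Apaf1 to Casp9 overlapped between the groups, at 1.47 to 2.05 in Hhex KO and 1.44 to 1.77 in Cre control. For comparison, Bcl2l11, the gene of BIM at the head of the intrinsic route, was at 230 to 327 CPM in Hhex KO and 144 to 168 CPM in Cre control.

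Set side by side per kilobase of exon, the 8 mRNAs spanned a range of levels in which Casp8 stood highest. Casp8 was at 52.6 ± 3.42 CPM per kb (SD, n = 4) in Hhex KO and 52.1 ± 4.31 CPM per kb (SD, n = 3) in Cre control. Ripk3 took the second place in Hhex KO, at 16.8 ± 2.46 CPM per kb (SD, n = 4), above the range of every gene but Casp8, whereas it came sixth in Cre control, at 10.3 ± 1.35 CPM per kb (SD, n = 3). In Cre control the neighbours in the order from Ripk1 (14.2 CPM per kb) through Casp9 (12.5), Cflar (12.01), Apaf1 (11.5) and Ripk3 to Fadd (7.77 CPM per kb) overlapped in range. In Hhex KO, Ripk1 (12.3 CPM per kb), Apaf1 (11.8), Casp9 (11.5), Cflar (8.93) and Fadd (6.68 CPM per kb) each overlapped with the next. Casp6 was lowest in both genotypes, at 4.54 CPM per kb in Hhex KO and 4.62 CPM per kb in Cre control, and its range lay below that of Fadd. The length is that of all annotated exons together, which for Cflar, with 13 annotated transcripts, is 12669 bases against 6572 bases in its longest transcript. With the longest transcript as length, Cflar was at 17.2 CPM per kb in Hhex KO and 23.1 CPM per kb in Cre control, which placed it second in Cre control. Ripk3 kept its second place in Hhex KO and its sixth in Cre control, at 19.6 CPM per kb in Hhex KO and 11.97 CPM per kb in Cre control. On that length, however, its Hhex KO range (17.05 to 23.6 CPM per kb) overlapped with those of Cflar (14.9 to 20.1), Apaf1 (11.7 to 18.9) and Casp9 (13.4 to 18.1 CPM per kb), and the ranges of Casp6 and Fadd also overlapped.

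Over the 7 libraries the 8 genes did not vary as a unit. The closest pair in log2 CPM was Casp9 and Fadd, with a Pearson r of 0.86, and the most opposed was Cflar and Ripk3, at -0.85. Within genotypes, after each group's mean was taken away, Cflar and Ripk3 had an r of -0.38. The highest such r of all pairs was 0.94, for Casp9 and Ripk3, whose r over the 7 libraries was 0.02. The lowest was -0.94, for Casp8 and Ripk1, whose r over the 7 libraries was -0.70. These are descriptions over 7 points that share library depth and composition, and the libraries differ in Malat1 as given above. Among 7395 other genes of at least moderate level, those most like Ripk3 were Eef2k, the kinase of elongation factor eEF2, at r = 0.99 and a log2 fold change of 0.62 (edgeR adjusted p = 0.0349), and Acsl4, an enzyme that activates polyunsaturated fatty acids, at r = 0.99 and 0.37 (edgeR adjusted p = 0.0951). The call of Eef2k was lost in 6 of the 7 analyses without 1 library, as that of Ripk3 was. Eef2k was picked for its likeness to Ripk3 in these same libraries, so a like pattern follows from the choice. Those most like Cflar were Nedd9, an adhesion scaffold, at r = 0.98 and a log2 fold change of -0.54 (edgeR adjusted p = 0.0383, and 0.0793 to 0.191 without any 1 Cre control library or Hhex KO replicate 2 or 3), and Cdk17, at r = 0.97 and -0.37 (edgeR adjusted p = 0.0949). The nearest genes were Mcts1 and Nr2c2ap for Casp8, Abcb10 and Lypla2 for Casp9, Prdx5 and Ebp for Casp6, Cyp20a1 and Tsnax for Fadd, Zfpm1 and Sbk1 for Ripk1, and Srebf2 and Ptpn9 for Apaf1, with r from 0.93 to 0.99.

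The wider cell death pathway, in 61 further genes of which 58 were tested, had 2 genes called higher and 1 called lower, or 5.17%, close to the 4.56% of all tested genes called in either direction. All 3 belong to the death receptors and ligands, of which 9 were tested. Tnfrsf25, the death receptor DR3, was at 8.88 to 17.9 CPM in Hhex KO and 1.24 to 1.95 CPM in Cre control, a log2 fold change of 3.02 ± 0.30 (edgeR adjusted p = 0.00112). Tnfsf10, the ligand TRAIL, was at 57.3 to 97.8 CPM in Hhex KO and 26.8 to 35.1 CPM in Cre control, with a log2 fold change of 1.25 ± 0.19 (edgeR adjusted p = 0.00954). Fasl, the Fas ligand, was at 112 to 171 CPM in Hhex KO and 228 to 382 CPM in Cre control, with a log2 fold change of -1.05 ± 0.21 (edgeR adjusted p = 0.0277). The call of Fasl was lost without Hhex KO replicate 2 or 3 and without Cre control replicate 1 or 3 (adjusted p 0.06 to 0.13), and that of Tnfsf10 without Cre control replicate 3 (adjusted p = 0.0585). Fas, the receptor of Fasl, was low, at 3.53 to 4.69 CPM in Hhex KO and 6.11 to 6.22 CPM in Cre control, and was not called (edgeR adjusted p = 0.138), though limma-voom with sample quality weights called it lower at an adjusted p of 0.022.

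Mlkl and Cycs, partners of RIPK3 and APAF1, were not called by edgeR or by any alternative. Mlkl, the pore-forming substrate of RIPK3, was at 16.1, 13.2, 11.6 and 15.2 CPM in Hhex KO replicates 1 to 4 and at 10.7, 12.2 and 13.2 CPM in Cre control replicates 1 to 3. The groups overlapped, and its log2 fold change was 0.21 ± 0.16 with a 95% interval of -0.16 to 0.59 (edgeR adjusted p = 0.565). Cycs, cytochrome c, was at 15.5 to 22.8 CPM in Hhex KO and 19.2 to 23.2 CPM in Cre control, with a log2 fold change of -0.11 ± 0.17. Its groups overlapped.

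**Figure D4:**
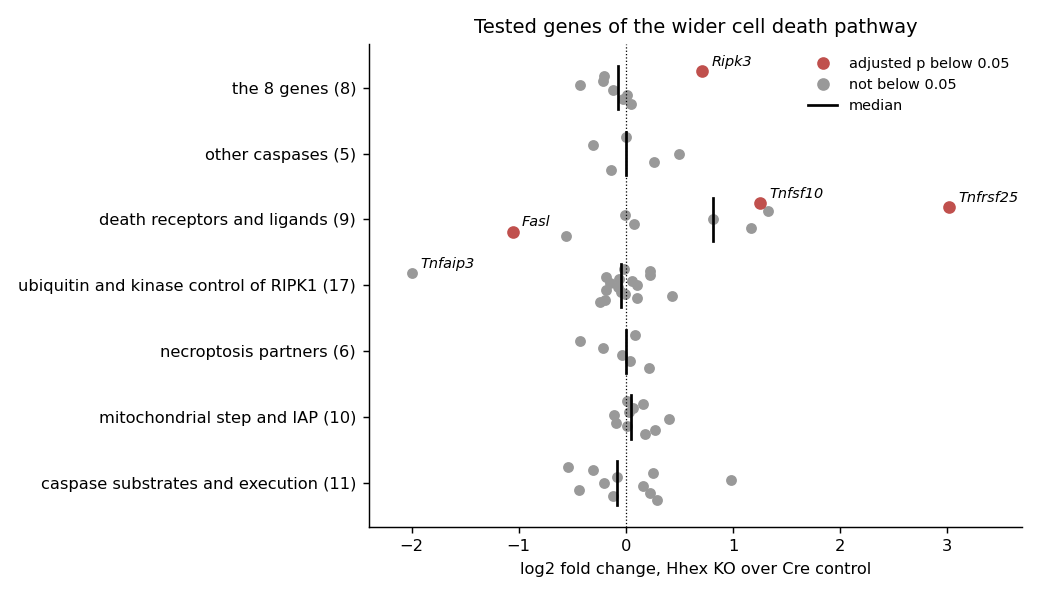
Log2 fold change (Hhex KO over Cre control, edgeR) of every tested gene of the 8 and of 6 lists of the wider pathway, with the number tested in parentheses, called genes in red and a bar at each list's median. The called genes are Ripk3, Tnfrsf25, Tnfsf10 and Fasl, and Tnfaip3 has the most negative value without being called.

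By list, 0 of 17 genes of the ubiquitin and kinase control of RIPK1, 0 of 6 necroptosis partners, 0 of 10 genes of the mitochondrial step and 0 of 11 caspase substrates were called by edgeR. At an unadjusted p under 0.05 there were 1, 1, 0 and 2 genes in these lists, against 18.5% of all tested genes. DESeq2, which called 5.14% of its genes higher and 3.86% lower, called 1 gene of the RIPK1 control list lower, and 1 of the substrates higher and 1 lower. Limma-voom called 0 genes of these 4 lists, and with sample quality weights, where 12.6% of all tested genes were called higher and 10.9% lower, it called 1 higher and 1 lower in the RIPK1 control list, 1 lower in the necroptosis partners, 1 higher at the mitochondrial step, and 1 higher and 2 lower in the substrates. Median log2 fold changes were -0.04, 0.00, 0.05 and -0.08 in these lists, against 0.82 in death receptors and ligands and 0.02 over all tested genes. Tnfaip3, which encodes the ubiquitin-editing enzyme A20 that restrains RIPK1 signalling, had the most negative fold change among them, and is named here after its values were seen. It was at 509.7, 154, 106 and 105 CPM in Hhex KO replicates 1 to 4 and at 1137, 548 and 935 CPM in Cre control replicates 1 to 3. The log2 fold change was -1.997 ± 0.58 (edgeR adjusted p = 0.104), with Hhex KO replicate 1 near the lowest Cre control library. Without that library, which was singled out by its own Tnfaip3 value, it was -2.85 and was called lower (edgeR adjusted p = 0.00658). Without any 1 of the other 6 libraries it was -2.25 to -1.76 and was not called (edgeR adjusted p 0.15 to 0.323). With all libraries, DESeq2 called Tnfaip3 lower, at an adjusted p that rounds to 0.05. Limma-voom with sample quality weights also called it lower (adjusted p = 0.00203), and limma-voom without them did not (adjusted p = 0.0595).

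**Figure D5:**
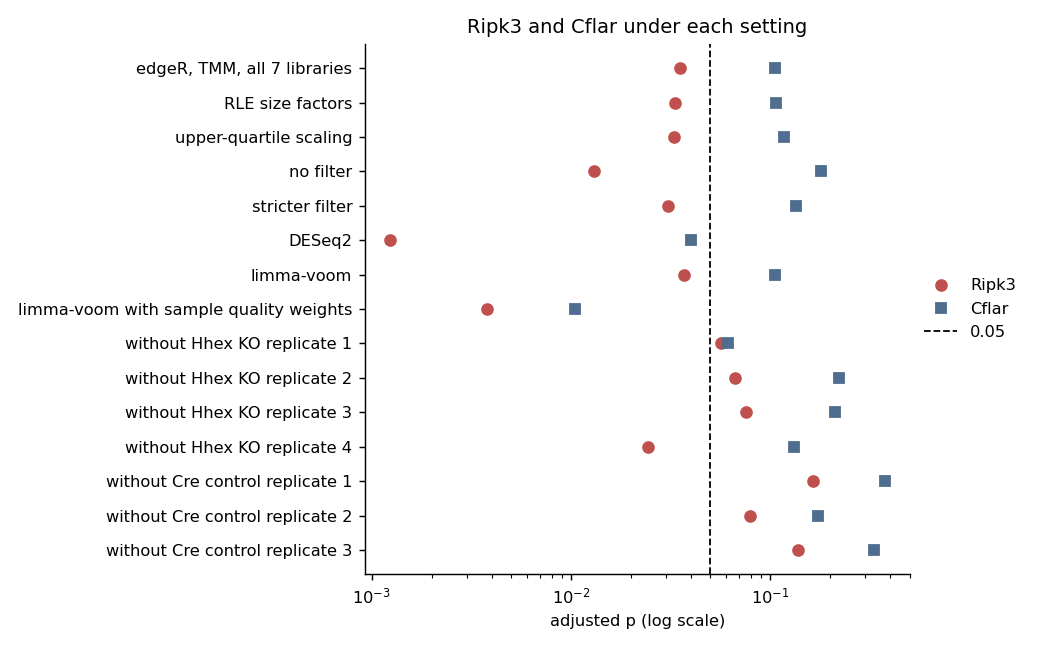
Adjusted p (log axis) of Ripk3 and Cflar under the reported fit and 14 alternatives, with a dashed line at 0.05. Ripk3 lies below the line with all 7 libraries under every tool and scaling shown, and above it in 6 of the 7 analyses without 1 library, whereas Cflar lies below it with DESeq2 and with limma-voom with sample quality weights.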

How the data were processed

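The authors deposited raw read counts per gene, whole numbers without normalization, for 7 libraries. STAR, featureCounts and the mm10 build are named in the submitters' processing notes, without versions. The sources used here do not give the annotation release or the strand setting. Columns were matched to samples by the labels, and 99.8% of gene identifiers had a symbol once the version was dropped. Coordinates and lengths are from GENCODE M21 (GRCm38).

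Counts were tested with edgeR 4.0.16 in R 4.3.3: genes kept by filterByExpr (minimum count 10, minimum total 15), TMM scaling, and the robust quasi-likelihood F test of Hhex KO against Cre control with no covariate, called at an adjusted p below 0.05. The standard error is the fold change divided by the square root of F. Alternatives used DESeq2 1.42.0, limma 3.58.1 (voom), other scalings and filters, a replicate block and leaving out each library. The procedure was also run on simulated counts drawn independently for each library, and the outcome is not reported here. The chi-square per degree of freedom between libraries of a group was at least 10.9, so no pair looked like 1 library deposited more than once. This does not show that the libraries came from separate animals. In Hhex KO the value was 27.9 between replicates 1 and 4 and 10.93 between replicates 2 and 3. Across these pairs it was 69.8 to 78.2, and in Cre control it was 15.3 to 17.3. The Hhex KO libraries thus fell into these pairs, and the reason was not tested. The p-values rest on the spread among these samples alone, which may be technical.

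The members, gene lists and tests were chosen with earlier results of these data known. Genes named are the 8 members, every called gene of the wider lists with Mlkl, Cycs and Fas, and for each member the 2 genes of highest Pearson correlation among those whose mean log2 CPM was 4 or more. Tnfaip3 was named after its values were seen. Some genes of the wider lists are not reported here by name. Markers of other cell types in the sort gave the following summed levels. T cell markers had 62.7 to 126 CPM in Hhex KO and 41.1 to 69.9 CPM in Cre control. B cell markers, mostly Ighm, had 240.0 to 404 CPM in Hhex KO and 211 to 256 CPM in Cre control. Of the 3 tested, 1, Cd79b, was called higher, against 2.68% of all tested genes. Neutrophil markers had 10.4 to 294 CPM in Hhex KO and 13.5 to 34.5 CPM in Cre control. Dendritic cell markers, mostly Itgax, had 691 to 957 CPM in Hhex KO and 478 to 834 CPM in Cre control. Erythroid markers had 1.86 to 44.6 CPM in Hhex KO and 4.00 to 24.4 CPM in Cre control.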

Additional observations from a re-analysis of the deposited data

Results flagged for a closer look

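The Tnfaip3 level of Hhex KO replicate 1, 509.7 CPM, stood apart from the other 3 Hhex KO libraries, which lay at 105 to 154 CPM. The gap to the nearest library made up 0.88 of the group's range. It was the single value so marked among 25 groups of 4 libraries examined, and chance marks about 1 group in 20.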

How the results depend on the processing

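Ripk3 was past 0.05 and higher with both other scalings, both other filters, DESeq2, limma-voom with and without sample quality weights and the replicate block. Leaving out 1 library gave log2 fold changes of 0.61 to 0.80 and adjusted p-values of 0.0243 to 0.163. Cflar had log2 fold changes of -0.43 with DESeq2 and -0.50 with limma-voom with sample quality weights, where it was called, and of -0.52 to -0.36 with 1 library left out, where it was not. Signs near 0 turned for genes that were never called. With limma-voom and sample quality weights the log2 fold change was -0.0069 for Casp8, 0.11 for Casp6 and 0.065 for Cycs, and with the replicate block it was -0.032 for Casp8 and 0.016 for Casp6. With 1 library left out it ranged from -0.038 to 0.076 for Casp8, from -0.087 to 0.029 for Casp6 and from -0.070 to 0.17 for Apaf1.

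The edgeR counts over all genes were 326 higher and 228 lower. They were 625 and 469 with DESeq2, 1534 and 1325 with limma-voom with sample quality weights, 186 and 183 with the stricter filter, and 499 and 275 with the replicate block on 6 libraries. Leaving out 1 library gave 91 to 527 higher and 50 to 291 lower genes. Of the wider pathway genes, 1 to 4 were then higher and 0 to 2 lower. The causes were not tested. Deviations of the libraries that share a number correlated at 0.33, 0.48 and -0.03 for numbers 1 to 3. No such values were taken for libraries with different numbers, so these cannot settle whether the numbers pair the samples. The block ended no call of the 8 genes. With the block, Tnfaip3 (-2.04, adjusted p = 0.0295) was called lower. The number of libraries limits precision: for the 7 genes that were not called, the 95% intervals still hold changes of the bounds given with each.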
